A study of Mus musculus with 9 samples.

Results

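The genes of the gut's hormone-producing cells were examined in the proximal colon: Chga, Chgb, Gcg, Pyy, Cck, Insl5, Neurod1, Tph1, Sct and Sst. They were chosen by name, as every probe set on the array annotated with 1 of these 10 symbols, which gave 11 probe sets of 22626. Each gene had 1 probe set except Neurod1, which had 2. Enteroendocrine cells are single hormone-secreting cells scattered through the intestinal epithelium. They store peptides or serotonin in dense granules and release them when nutrients, bile acids or bacterial products reach the lumen. In the colon, L cells make glucagon-like peptides (from Gcg), peptide YY (Pyy) and insulin-like peptide 5 (Insl5), enterochromaffin cells make serotonin, and D cells make somatostatin (Sst). Somatostatin, chromogranins and several other granule proteins are also made by enteric neurons, which a piece of whole colon contains.

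The 9 mice were C57Bl/6 animals 9 weeks old, bred from cSHMT mice backcrossed for 10 generations, and RNA came from the proximal colon. Each of the 3 genotypes (wild-type, heterozygous, mutant) had 3 mice, and the gene was cSHMT, the cytosolic serine hydroxymethyltransferase encoded by Shmt1, with 1 array per mouse. The labels call the mice biological replicates, so the tests weigh genotype differences against the spread between single mice. Mice of all 3 genotypes were weaned at 3 weeks onto AIN-93G food lacking folate and choline, so no group had a normal diet. The time on that diet is 6 weeks in one label and 5 weeks in another. The labels do not say how the allele was made or which sex the mice were. About 50 ng of RNA per colon was amplified before labelling.

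Signals are linear units per probe set, and levels of different genes cannot be compared on an array. Of the 22626 probe sets, 13576 were bright enough to be tested, at a limit near a signal of 75.5, and probe sets of Bacillus genes without a target read at most 10.9. The number of arrays limits the precision. The labels were checked with Shmt1, which was lower in each mutant mouse than in every other mouse on all 4 of its probe sets. The brightest had means of 493.5 (wild-type), 417.9 (heterozygous) and 258.4 (mutant), with wild-type and heterozygous mice overlapping, and a second had 594.7, 303.1 and 116.7, with the 3 genotypes apart. Beta-actin's 3' signal over its 5' signal rises where RNA was shortened, though that is not the only possible reason. It was 4.45 to 5.02 on the arrays numbered 1, 3.05 to 3.75 on those numbered 2 and 2.52 to 2.73 on those numbered 3. The colonocyte gene Car1 and the goblet cell gene Tff3 were bright, with genotype means of 5939 to 6265 and 6497 to 6882, and the 7 pancreas genes on the array summed to between 17.8 and 41.8. In a whole piece of tissue, fewer cells of a type and less RNA per cell cannot be told apart.

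The stretches of 250 bases before the annotated start of 6 members are shown, picked because each holds a motif marked below. Pyy and Neurod1, grouped below with members that varied alike from mouse to mouse, held neither marked motif and are not shown. Insl5, which is shown, varied the other way. A link between these motifs and shared variation was not tested. The windows come from RefSeq on build GRCm38.p6. Capitals in the first 3 mark the cAMP response element or its close variant, searched as TGACGTNA on both strands. The element was first defined in the somatostatin gene, and the chromogranin A gene is known to use one. The window of Chgb is chr2:132781392-132781641 on the plus strand, that of Chga chr12:102554691-102554940 on the plus strand and that of Sst chr16:23890845-23891094 on the minus strand. Each is printed 5′ to 3′ along its gene.
Chgb: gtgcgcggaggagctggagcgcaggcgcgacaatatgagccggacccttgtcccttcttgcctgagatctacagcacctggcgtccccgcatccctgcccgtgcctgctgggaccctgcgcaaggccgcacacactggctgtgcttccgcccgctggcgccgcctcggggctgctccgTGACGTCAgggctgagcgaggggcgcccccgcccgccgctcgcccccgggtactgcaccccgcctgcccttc
Chga: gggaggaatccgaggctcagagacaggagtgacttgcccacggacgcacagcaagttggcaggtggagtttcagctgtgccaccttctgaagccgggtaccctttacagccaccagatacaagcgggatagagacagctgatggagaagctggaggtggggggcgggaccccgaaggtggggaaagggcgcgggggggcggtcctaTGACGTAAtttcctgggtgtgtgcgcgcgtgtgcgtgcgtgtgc
Sst: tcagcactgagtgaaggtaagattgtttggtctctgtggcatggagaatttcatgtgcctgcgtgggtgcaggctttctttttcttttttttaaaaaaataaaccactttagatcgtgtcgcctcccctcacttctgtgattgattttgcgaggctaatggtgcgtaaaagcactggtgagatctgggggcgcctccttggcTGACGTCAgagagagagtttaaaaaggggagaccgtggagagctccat

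The exact element TGACGTCA stood in Chgb and Sst, and Chga had TGACGTAA. TGACGTNA, which includes the exact element, was found in 3 of the 10 genes and in 2.52% of 32851 promoter windows of this length. The exact element was in 1.55% of the windows. In Sst it began 48 bases before the annotated start, in Chga 44 and in Chgb 72.

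The next sequences are those of Gcg, Sct and Insl5, with capitals for the E-box CAGNTG, searched on both strands, a form of the wider E-box CANNTG. Neurod1, a basic helix-loop-helix factor of enteroendocrine and islet cells, is known to act on E-boxes of the glucagon and secretin genes. The window of Gcg is chr2:62483654-62483903, that of Sct chr7:141279134-141279383 and that of Insl5, for the more upstream of its 2 annotated starts, chr4:103027272-103027521, all on the minus strand.
Gcg: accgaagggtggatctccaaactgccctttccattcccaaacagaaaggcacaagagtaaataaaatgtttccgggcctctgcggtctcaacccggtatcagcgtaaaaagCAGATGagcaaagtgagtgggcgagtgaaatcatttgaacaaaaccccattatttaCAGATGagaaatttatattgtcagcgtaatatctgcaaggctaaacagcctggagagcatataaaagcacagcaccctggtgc
Sct: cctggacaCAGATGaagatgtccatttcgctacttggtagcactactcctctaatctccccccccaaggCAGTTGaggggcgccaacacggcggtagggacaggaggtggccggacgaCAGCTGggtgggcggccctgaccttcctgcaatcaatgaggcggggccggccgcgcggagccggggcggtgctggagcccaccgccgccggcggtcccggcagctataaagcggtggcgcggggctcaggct
Insl5: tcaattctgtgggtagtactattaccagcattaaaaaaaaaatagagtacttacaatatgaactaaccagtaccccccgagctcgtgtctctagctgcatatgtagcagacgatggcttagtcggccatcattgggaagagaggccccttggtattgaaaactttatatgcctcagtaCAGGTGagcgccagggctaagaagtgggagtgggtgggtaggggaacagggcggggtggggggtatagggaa

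CAGNTG occurred 2 times in Gcg, 3 times in Sct and 1 time in Insl5. It was present in 6 of the 10 members (Cck, Chga, Chgb, Gcg, Insl5 and Sct) and in 44.8% of all windows, so its presence here is common. The wider CANNTG was in 9 of the 10 members and in 66.2% of all windows. A match gives the letters in these windows and says nothing of binding.

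Chga and Chgb encode chromogranins A and B, acidic proteins that pack hormones into granules and mark enteroendocrine cells as a class. Chga read 2437.4, 1995.1 and 1894.9 in the wild-type mice, 2646, 2212.7 and 1803.8 in the heterozygous and 2157.3, 2680.2 and 1924.7 in the mutant mice 1, 2 and 3. Chgb read 4129.6, 3183.6 and 2736.7 in the wild-type mice, 3934.2, 3342.9 and 3364 in the heterozygous and 3005.3, 3525.1 and 2746.9 in the mutant mice. For both genes the 3 genotypes overlapped, and their means, 2109, 2221 and 2254 for Chga and 3350, 3547 and 3092 for Chgb, lay closer together than the mice of a genotype.

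Among the peptides of L cells, Gcg, the precursor of the glucagon-like peptides, read 1159.6, 1288.2 and 849.2 in the wild-type mice, 1208.5, 1665.3 and 1156.6 in the heterozygous and 1037.4, 1259.7 and 937 in the mutant mice. Pyy, whose peptide slows transit and reduces appetite, read 2866.8, 2651.4 and 2007 in the wild-type mice, 2354.1, 1888.2 and 1729.1 in the heterozygous and 2307.8, 2500.1 and 1727.8 in the mutant mice. Heterozygous 2 was the highest mouse for Gcg and wild-type 3 the lowest, while for Pyy both lower heterozygous mice lay below every wild-type mouse. Insl5, a relaxin-family peptide of colonic L cells that signals through Rxfp4, read 290.5, 229.3 and 348.4 in the wild-type mice, 195.3, 124.6 and 361.8 in the heterozygous and 507.3, 254.6 and 363.2 in the mutant mice. Its highest mouse, mutant 1, read 4.07 times its lowest, heterozygous 2, and within each carrier genotype the values spanned much of the whole range.

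Sst and Sct encode somatostatin, the peptide with which D cells restrain other endocrine cells, and secretin. Sst read 1656.6, 1895.8 and 1791.7 in the wild-type mice, 1972.9, 1874.6 and 1763.5 in the heterozygous and 1728.8, 1957 and 1537.6 in the mutant mice. Sct read 1360.7, 1281.6 and 1215.3 in the wild-type mice, 1188.2, 1315.6 and 1008.4 in the heterozygous and 989.9, 1383.4 and 1083.5 in the mutant mice. The highest Sst value was 1.28 times the lowest, the smallest ratio among the 11 probe sets, and for Sct it was 1.40 times. In neither gene were the genotypes apart. Cck, the peptide of I cells, which are mainly cells of the small intestine, was dim, with a range from 27.1 to 54.8 over the 9 mice. It lay above the Bacillus controls and below the limit for testing, and its means were 40.6, 47.53 and 44.73 in wild-type, heterozygous and mutant mice.

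Tph1, tryptophan hydroxylase 1, catalyses the first step of serotonin synthesis in enterochromaffin cells. It read 634.4, 678.2 and 742.1 in the wild-type mice, 708.5, 840.8 and 867.5 in the heterozygous and 512.2, 847.8 and 985.9 in the mutant mice. The mutant mice held both the lowest and the highest value, and the SD between mice was 244 in mutant against 54.2 in wild-type and 85.1 in heterozygous mice. Tph1 is also a gene of mast cells: 9 of the 10 mast cell markers on the array were too dim to be tested and Kit, which pacemaker cells of the gut express too, was the exception. Of these markers Ms4a2 and Fcer1a averaged at most 3.97 in any genotype, within the Bacillus controls. The mast cell proteases Mcpt1 and Mcpt2 lay above those controls in every mouse. They ran from 15 and 19.5 in mutant 2 to 103.8 and 115.8 in wild-type 3. The 10 markers summed to between 535.2 and 930.5 in the wild-type mice, 793.1 and 1011 in the heterozygous and 550.4 and 853.9 in the mutant mice, most of it Kit, and their part in the Tph1 values was not tested.

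Neurod1 was read by a brighter and a dimmer probe set. On the brighter it read 135.2, 191.1 and 143 in the wild-type mice, 205, 211.1 and 165.8 in the heterozygous and 109.1, 207.2 and 164.4 in the mutant mice. On the dimmer, which was too low to be tested, it ranged from 11.9 in mutant 1 to 30.1 in heterozygous 2. Both probe sets were lowest in mutant 1 and highest on the linear scale in heterozygous 2, and both had their highest mean in heterozygous mice.

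**Figure D1:**
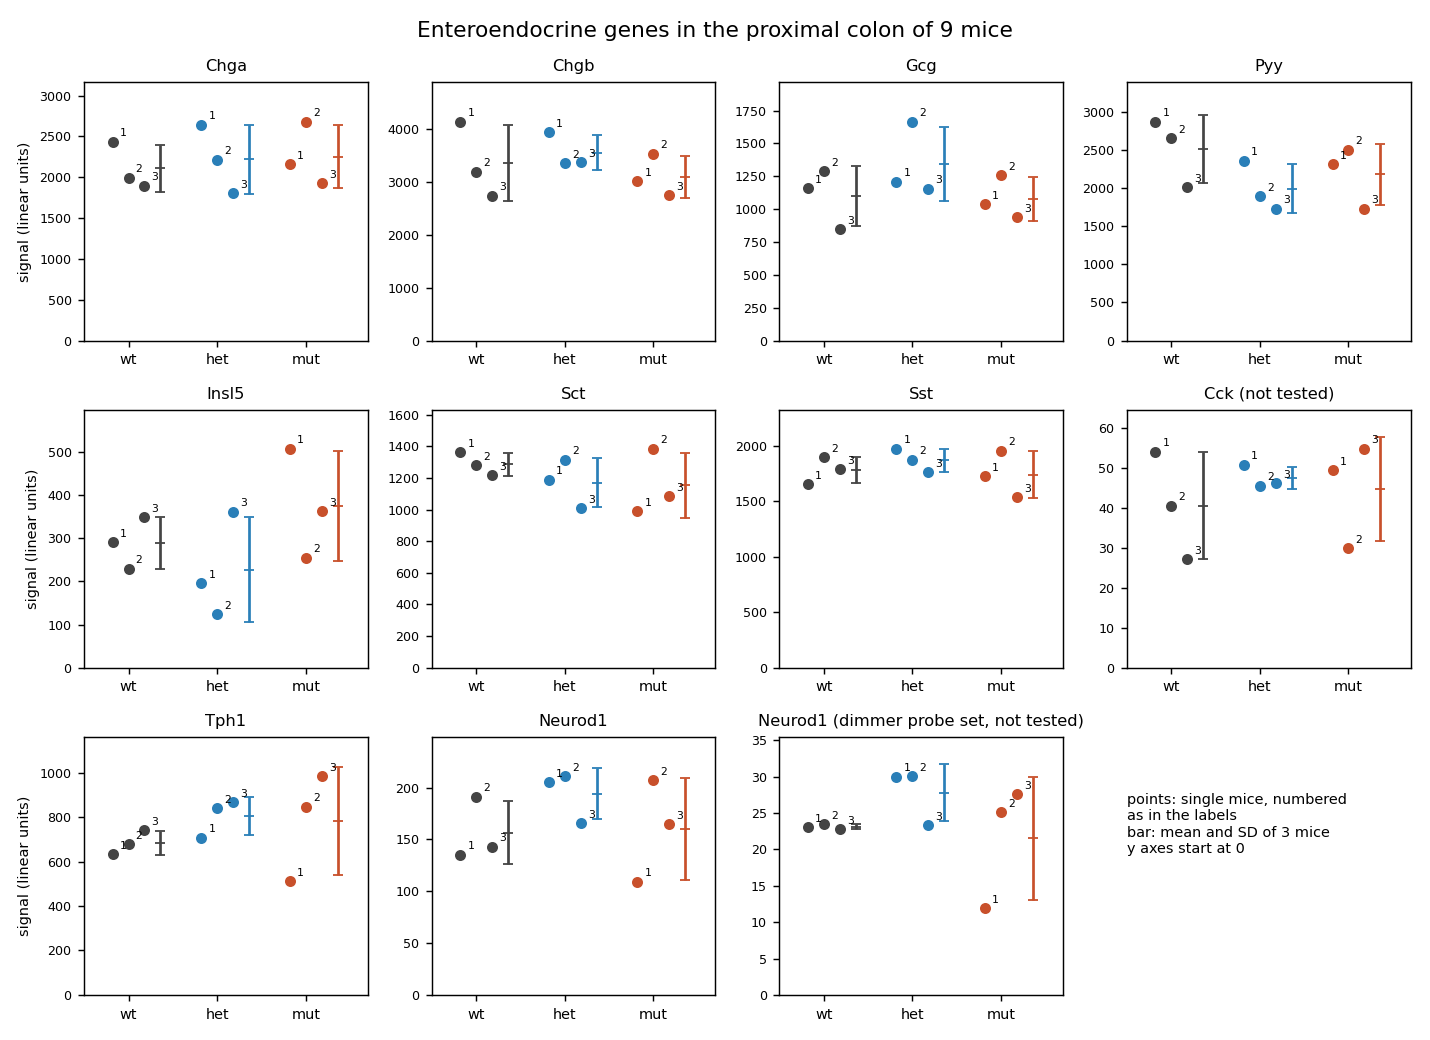
Signal (linear units, y axis from 0) of the 11 probe sets in each mouse, by genotype (wt, wild-type; het, heterozygous; mut, mutant); numbers name the mice, and bars give the mean and SD of 3 mice. The genotypes overlap for all 11 probe sets on this scale, and the values of Insl5 run from 124.6 to 507.3.

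Heterozygous against wild-type colons asked whether these genes differ with the heterozygous genotype when folate and choline are lacking. None of the 9 members tested passed an adjusted p of 0.05 in limma's test over all 13576 probe sets, nor did any reach an unadjusted p of 0.05. The background was 0% called, with 8.01% of all probe sets at an unadjusted p under 0.05. Pyy came nearest, with a log2 fold change of -0.32 (SE 0.15, 95% interval -0.66 to 0.01, adjusted p = 0.633). Gcg and Neurod1 had log2 fold changes of 0.29 and 0.26, Tph1 0.22 and Insl5 -0.44, with adjusted p-values between 0.721 and 0.763. For Tph1 the normalized values of the heterozygous mice all lay above those of the wild-type mice, while the deposited values overlapped. That made 1 of 9 members without overlap, where 14.7% of all tested probe sets had none. The intervals of Chgb (-0.09 to 0.36) and Sst (-0.16 to 0.28) were the narrowest, and neither gene differed beyond its spread.

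The mutant genotype was then set against wild-type. Again 0 of 9 members passed, and none had an unadjusted p under 0.05; 0.0221% of all probe sets were called and 3.84% had such a p. Adjusted p was 0.998 for each of the 9. The log2 fold changes ran from -0.20 for Pyy (SE 0.15, interval -0.53 to 0.14) to 0.32 for Insl5 (SE 0.34, interval -0.43 to 1.07). Sct had -0.17 (interval -0.48 to 0.14), Tph1 0.14 (-0.23 to 0.52), Chga 0.09 (-0.22 to 0.40) and Gcg -0.02 (-0.45 to 0.40). The interval of the ratio reached down to 0.691 for Pyy and up to 2.10 for Insl5, so that the data do not show equal levels. No member's 3 mutant values lay wholly apart from the wild-type ones, against 8.42% of all tested probe sets. The median over the 9 members was -0.02 and over all probe sets 0.00364.

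Mutant against heterozygous tests whether the carrier genotypes differ from each other. Insl5 had the largest value of any member in any comparison, a log2 fold change of 0.76 with higher signal in mutant mice (SE 0.34, interval 0.00349 to 1.51), with an unadjusted p of 0.0491 and an adjusted p of 0.658 in limma's test. It did not pass, and heterozygous 3 read above mutant 2. Without mutant 1 the value was 0.46 and without heterozygous 2 it was 0.40. It was the 1 member of 9 with an unadjusted p under 0.05, a threshold that 7.56% of all probe sets reached. Gcg and Neurod1 pointed the other way, at -0.31 and -0.25, as did Chgb at -0.21 (adjusted p = 0.723, 0.773 and 0.675). None of the 9 was called, with 0.0221% of all probe sets called, and none was without overlap, against 12.4%. Each pair of these 3 comparisons shares the mice of 1 genotype.

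**Figure D2:**
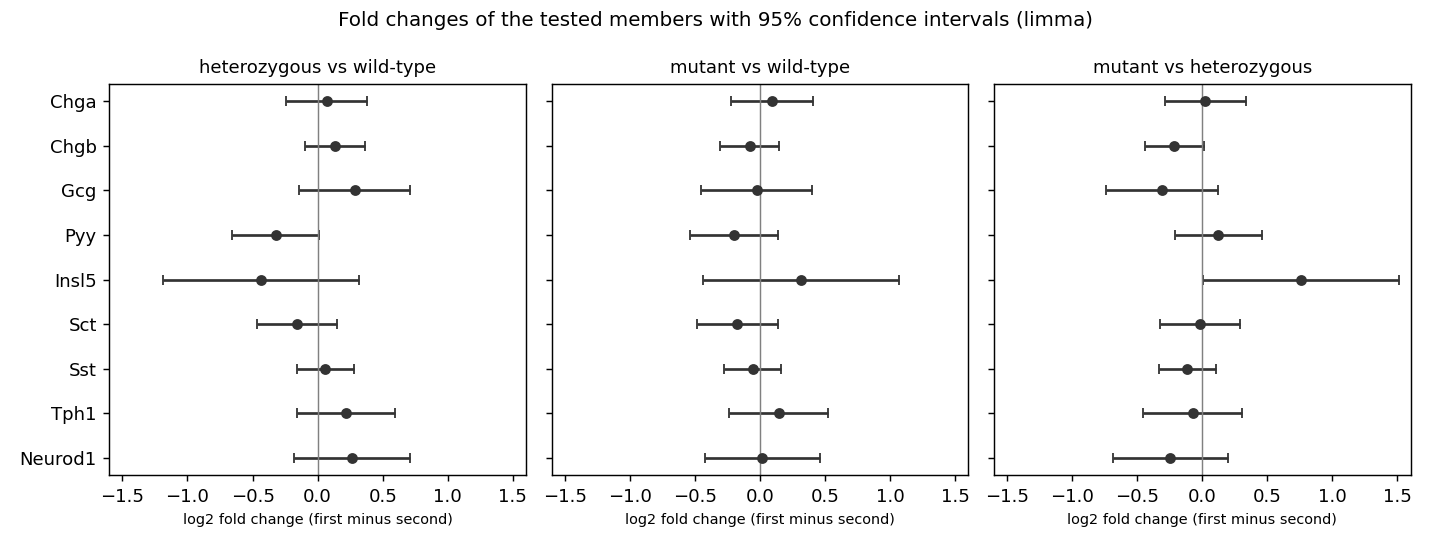
Log2 fold change (first genotype minus second, x axis) of the 9 tested members in the 3 comparisons, with 95% confidence intervals from limma (3 mice per genotype). All intervals include 0 except that of Insl5 in mutant against heterozygous, 0.00349 to 1.51, which does not pass after adjustment.

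The members differed widely in how far mice of one genotype spread. The SD of log2 signal within genotypes was 0.116 for Sst, 0.15 for Chgb, 0.189 for Sct and 0.21 for Chga, against a median of 0.173 over all tested probe sets. Pyy, Tph1, Neurod1 and Gcg followed with 0.231, 0.24, 0.277 and 0.293. Insl5 stood far out at 0.544, above 98.7% of the tested probe sets, although it was brighter than Neurod1's probe set by rank (60.7th against 51.9th percentile of mean signal).

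**Figure D3:**
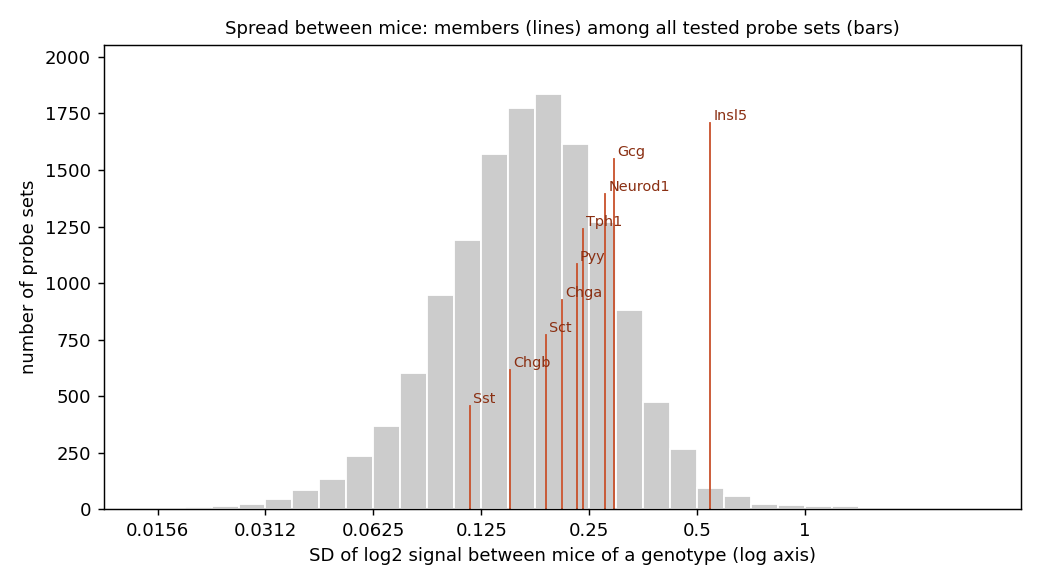
Number of tested probe sets (bars) by SD of log2 signal between mice of a genotype (x axis, log scale), with lines at the 9 tested members; the height of a line has no meaning. Sst lies to the left at 0.116 and Insl5 to the right at 0.544.

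From mouse to mouse, most members varied in the same direction and Insl5 in the other. Over the 9 mice 25 of the 36 pairs of members, or 69.4%, correlated positively, with a median r of 0.367; over all pairs of tested probe sets 49.9% did, with a median of -0.001. The 11 negative pairs all held Insl5 or Tph1, and with these left out after their values were seen the log2 signals of Chga, Chgb, Gcg, Pyy, Neurod1, Sct and Sst correlated positively in 21 of 21 pairs, as the choice made more likely, and in 21 of 21 after the mean of each genotype was subtracted. With the values as deposited it was 20 of 21, the exception being Pyy with Neurod1 (r = -0.07). Without the 2 mice farthest from the median of the first gene it was 19 of 21, with Chga and Sst at -0.06 and Pyy and Sst at -0.10. Insl5 correlated negatively with each of the 8 other members, by either scale and within genotypes, although with Pyy r was only -0.04. Without the 2 farthest mice it was negative with 6 of 8, and positive with Tph1 (0.39) and Pyy (0.24). Tph1 followed neither side, with r from -0.55 with Pyy to 0.39 with Neurod1. In every genotype Gcg, Pyy and Chga were lowest on the array numbered 3, the number with the lowest actin ratio. Chgb, Neurod1, Sct and Sst were not. Subtracting genotype means leaves differences between array numbers in place, and their part in these correlations was not tested.

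The pair that differed most was Insl5 and Neurod1 (Pearson r = -0.83, exact permutation p = 0.00309, adjusted over 36 pairs 0.111; Spearman rho = -0.85, exact p = 0.00607). Without heterozygous 2 and mutant 1, the mice farthest from the Insl5 median, r was -0.88, and within genotypes it was -0.82. Insl5 against Gcg gave r = -0.72 and rho = -0.80 (exact permutation p = 0.0308 and 0.0138), and r = -0.57 without wild-type 3 and heterozygous 2. Gcg and Neurod1 went together (r = 0.69, rho = 0.80, exact permutation p = 0.0347 and 0.0138; 0.58 without the same mice), as did Chga and Sct (r = 0.68, rho = 0.73, exact permutation p = 0.0478 and 0.0311; 0.90 within genotypes and 0.75 without heterozygous 1 and mutant 2). Chgb with Neurod1 gave r = 0.72 and Pyy with Sct 0.71, and these fell to 0.39 and 0.40 without the 2 mice farthest from the median of the first gene. Of the 36 pairs, 8 had a Pearson p under 0.05 in the exact permutation test and none passed after adjustment (smallest adjusted p 0.111 for r and 0.166 for rho). Chga and Chgb had r = 0.56, Chga and Sst 0.43 and Chgb and Sst 0.46 (exact permutation p from 0.117 to 0.249), so the genes that share the cAMP element were no closer to each other than to Neurod1, with which they gave 0.71, 0.72 and 0.65; the differences between these correlations were not tested.

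**Figure D4:**
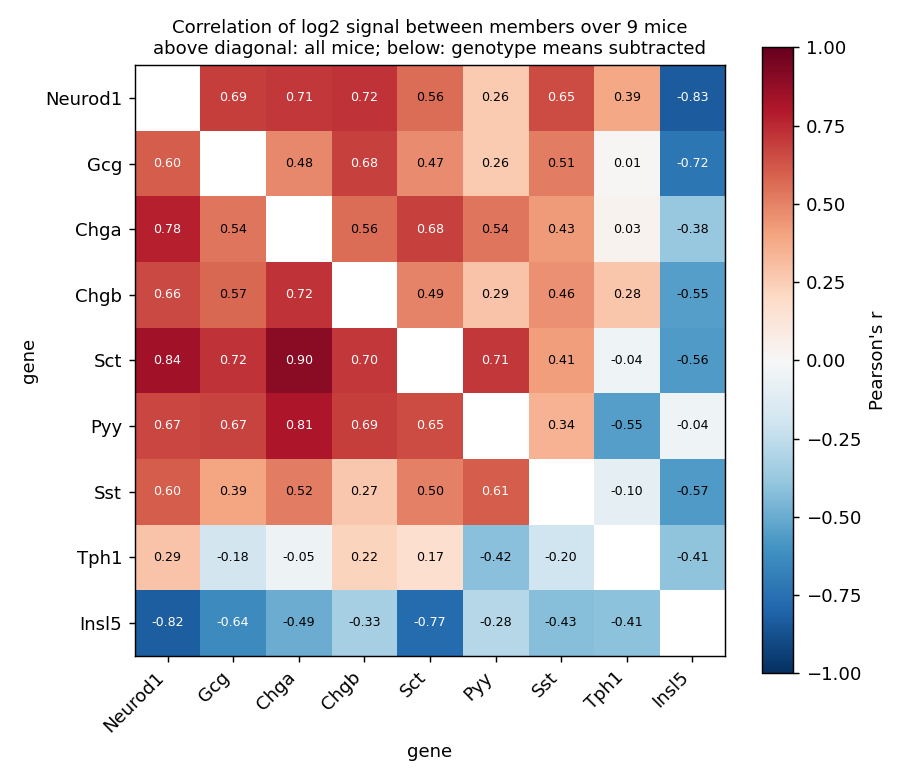
Pearson's r of log2 signal between the 9 tested members over 9 mice (colour and printed value), above the diagonal for all mice and below it after the mean of each genotype was subtracted. The row and column of Insl5 are negative throughout, and Neurod1 is at -0.83 with it.

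A marker of position along the colon correlated positively with Insl5 and negatively with the other tested members over the 9 mice. Hoxb13 is a homeobox gene that the embryo turns on in the rearmost gut, and Insl5 is known to rise toward the distal colon and rectum. Ordered by rising Insl5, Hoxb13 read 3 in heterozygous 2, 2.5 in heterozygous 1, 30.4 in wild-type 2, 16.6 in mutant 2, 9 in wild-type 1, 90 in wild-type 3, 25.6 in heterozygous 3, 61 in mutant 3 and 124 in mutant 1. The 2 mice with the least Insl5, and wild-type 1, had Hoxb13 within the Bacillus controls, and the mouse with the most Insl5 had the most Hoxb13. Aqp8, a water channel of colonocytes, took nearly the same order, with 44.8 and 30 in heterozygous 2 and 1 and 645.8 in mutant 1. It was picked from a list of colonocyte genes with its values in view. No correlation with Insl5 was computed for Aqp8 or for the other genes of that list.

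Across the 9 mice, Insl5 correlated with Hoxb13 at r = 0.79 and rho = 0.77 (exact permutation p = 0.00973 and 0.0214, adjusted over 15 relations 0.0292 and 0.0765), and at 0.63 without wild-type 3 and mutant 1. Chgb ran against Hoxb13 with r = -0.92 and rho = -0.85 (exact permutation p = 0.000565 and 0.00607, adjusted 0.00847 and 0.0304; r = -0.81 without the same mice). Neurod1 did so too (r = -0.84, rho = -0.88, exact permutation p = 0.00538 and 0.00308, adjusted 0.0269 and 0.0304; r = -0.64 without those mice). Within genotypes the values were 0.66, -0.88 and -0.84 (exact permutation p within genotypes, unadjusted, 0.0694, 0.0231 and 0.0231). The 15 relations were Insl5 with each of 7 position genes and the 8 other members with Hoxb13 alone. They were chosen after values had been seen. The adjusted p-values take no account of the relations left out, so they are smaller than a full search would give. Gcg at -0.73, Chga at -0.57, Sct at -0.56, Sst at -0.44, Tph1 at -0.40 and Pyy at -0.17 were also negative and did not pass. Without wild-type 3 and mutant 1, Tph1 turned to 0.38, and the others named here stayed negative. Hoxb13 averaged 43.13 in the wild-type mice, 10.37 in the heterozygous and 67.2 in the mutant mice, the same order as Insl5 at 289.4, 227.2 and 375.

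Of the other position genes, most ran the other way from Hoxb13. Hoxa13, dim at 8.2 to 33.9 with 1 mouse within the Bacillus controls, had rho = 0.87 and r = 0.66 with Insl5 (exact permutation p = 0.00451 and 0.0597, adjusted 0.0304 and 0.112). Hoxd9 and Hoxd10, which lie before the Hox13 group in their cluster, had r = -0.88 and -0.80 with Insl5 (exact permutation p = 0.0052 and 0.00719, adjusted 0.0269 and 0.027), but -0.40 and -0.50 without heterozygous 2 and mutant 1, so these rest on those mice. Their rho was -0.58 and -0.70 (exact permutation p = 0.108 and 0.0433, adjusted 0.162 and 0.108). Hoxd11, dim at 15 to 36.1, had r = -0.72 and rho = -0.75 with Insl5 (exact permutation p = 0.0373 and 0.0255, adjusted 0.08 and 0.0765), and r = -0.38 without mutant 1 and mutant 3. Hoxd12, at most 10.6 and so within the Bacillus controls, had r = -0.44, and Hoxd13, at most 1.4, had -0.02. The 7 genes summed to 2110 to 2241 in the wild-type mice, 2262 to 2729 in the heterozygous and 1785 to 2322 in the mutant mice, nearly all of it Hoxd9 and Hoxd10. The relation to Hoxb13 was looked at after its values had been seen, Hoxb13 was below the limit for testing by genotype, and the part of colon position in the members' values was not tested.

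**Figure D5:**
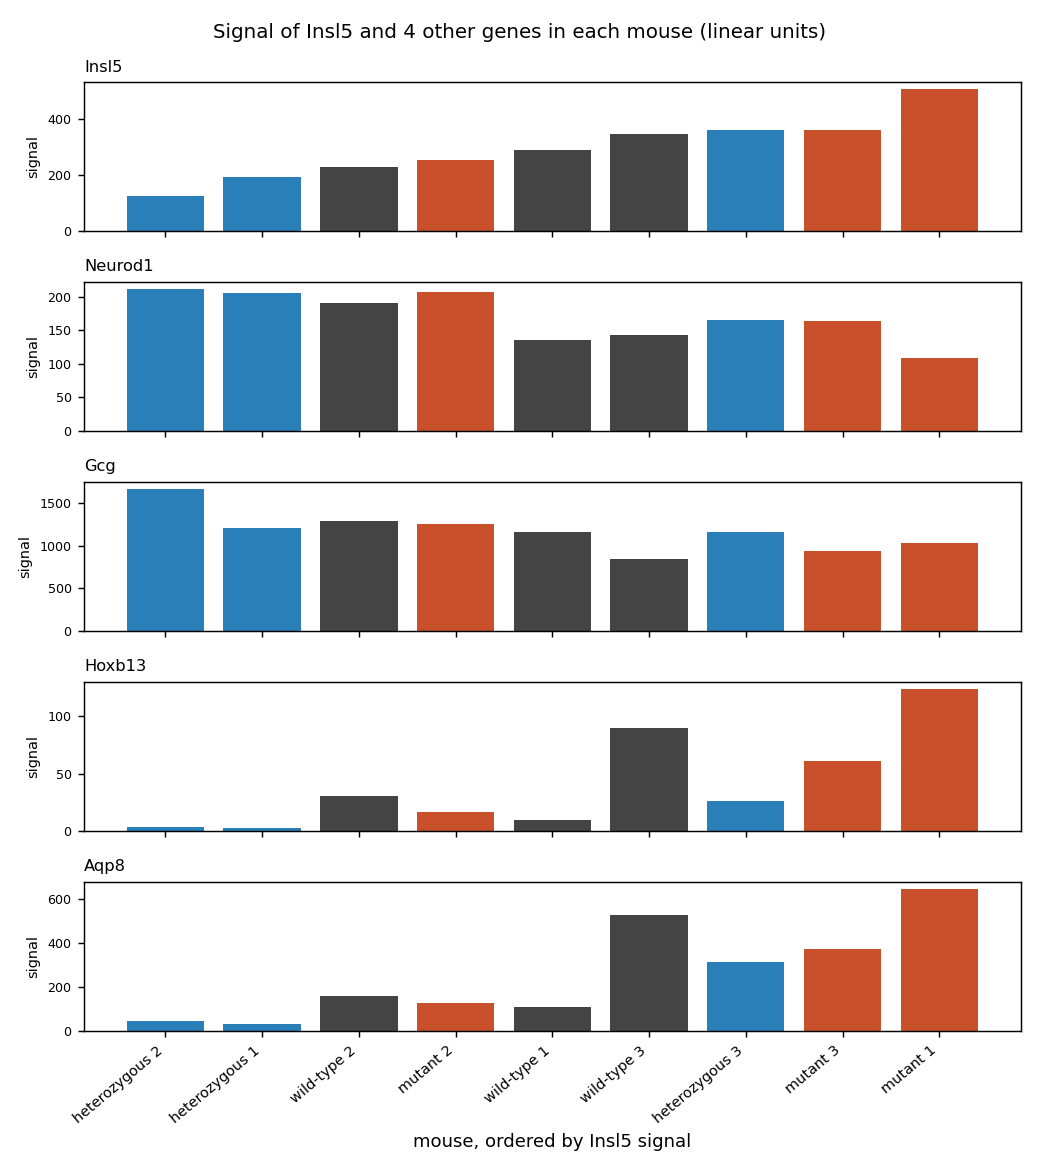
Signal (linear units, from 0) of Insl5, Neurod1, Gcg, Hoxb13 and Aqp8 in each of the 9 mice, ordered by Insl5; colour shows the genotype named under each bar. Neurod1 and Gcg are highest at the left, in heterozygous 2 (211.1 and 1665.3), and Hoxb13 and Aqp8 at the right, in mutant 1 (124 and 645.8). Hoxb13 and Aqp8 were picked with their values in view.

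The ratio of beta-actin's 3' to 5' signal was set beside the members as well. Over 9 mice the 3' to 5' actin ratio had r = 0.62 with Pyy, 0.60 with Chga and -0.59 with Tph1 (rho = 0.67, 0.75 and -0.47; exact permutation p for r = 0.0825, 0.0875 and 0.0909, for rho 0.0589, 0.0255 and 0.213), and none of the 9 relations passed after adjustment (smallest adjusted p 0.229). Without wild-type 1 and mutant 1, r was 0.58, 0.88 and -0.18, and that of Neurod1 went from 0.05 to 0.87. Over all 9 mice Neurod1 and the other 5 members lay between -0.05, for Sst, and 0.31, for Sct, with Insl5 at 0.24. Without those 2 mice Chgb had r = 0.63, Sst 0.56, Sct 0.51, Gcg 0.415 and Insl5 -0.40. The 7 members that varied alike all correlated positively with the actin ratio in the 7 mice left, and Insl5 and Tph1 negatively. This split was not present over all 9 mice, where Insl5 was positive and Sst slightly negative. The 7 members had been grouped by their correlations in these same mice, which makes a shared sign more likely. No p-value was computed for the 7 mice. The part of the actin ratio in the members' values was not tested.

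The rest of the hormone system was read from lists of genes. Among other gut hormones and peptides, 11 of 16 genes on the array were tested and none was called in any comparison, with 2 higher and 9 lower in each carrier genotype against wild-type. Of all tested probe sets 51% were higher in mutant and 49% in heterozygous mice. Gal, the neuropeptide galanin, read 1182 ± 74.9 in wild-type (SD over 3 mice, here and below), against 899.5 ± 177 for heterozygous and 832.5 ± 183 for mutant mice (log2 fold change -0.53 in mutant and -0.41 in heterozygous mice, adjusted p = 0.998 and 0.584 in limma). Nts, the neurotensin gene, the hormone of N cells, read 2201 ± 200, 2120 ± 437 and 1630 ± 372. The medians of this list were -0.06 in mutant and -0.09 in heterozygous mice. Gip and Gast, hormones of the upper gut, averaged at most 6.13 in any genotype, within the Bacillus controls.

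Enteroendocrine transcription factors were mostly too dim. Of 15 on the array 8 were tested and none passed, with medians of -0.03 in mutant and 0.03 in heterozygous mice against wild-type. Neurog3, which commits progenitors to the endocrine fate, averaged at most 24.37 in any genotype. Atoh1, which opens the secretory lineage, read 1008, 1036 and 997.3 in wild-type, heterozygous and mutant mice, and Gfi1 232.6, 202.1 and 157.6 (log2 fold change -0.52 in mutant, adjusted p = 0.998). Foxa1 and Sox4, which act more broadly in the epithelium, were bright and had log2 fold changes of -0.17 and -0.01 in mutant mice.

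Genes of granules and prohormone processing likewise did not pass, 0 of 14 tested in each comparison. Cpe, the carboxypeptidase that trims peptide ends, read 3207, 3434 and 3400 in wild-type, heterozygous and mutant mice, and Pcsk1, the convertase that cuts prohormones, 247.3, 264.8 and 235.5. Scg5, a chaperone of the convertase Pcsk2, had -0.28 in mutant against heterozygous mice (unadjusted p = 0.052, adjusted p = 0.664). The list, which holds Chga and Chgb too, had medians of 0.02, 0.10 and 0.0033 in mutant and heterozygous against wild-type and mutant against heterozygous.

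For serotonin, 0 of 7 tested genes passed, and 6 of them were higher in mutant than in wild-type mice (median 0.14), Tph1 among them. Of all tested probe sets 51% were higher in that comparison. Ddc, the decarboxylase of the step after Tph1, read 751.7 ± 43.4 in the wild-type mice, 845.8 ± 72.8 in the heterozygous and 946 ± 65.2 in the mutant mice. Each mutant mouse lay above each wild-type one in deposited signal (limma log2 fold change 0.33, unadjusted p = 0.00966, adjusted p = 0.998). Between these genotypes 8.42% of all tested probe sets had no overlap in normalized values, and 3.84% had an unadjusted p under 0.05. Ddc had the smallest p of the list. Slc18a1, which loads serotonin into vesicles, read 320.7 ± 16.1, 433.3 ± 42.2 and 385.7 ± 68.1. Gch1, needed for the cofactor of Tph1, was 0.45 higher on the log2 scale in mutant than in heterozygous mice (unadjusted p = 0.00821, adjusted p = 0.575).

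Nutrient sensors and hormone receptors were few above the limit. Of 8 sensors on the array 4 were tested, and none passed. Ffar2, a receptor of short-chain fatty acids, read 1172 ± 166 in the wild-type mice, 1165 ± 88.1 in the heterozygous and 1523 ± 64.5 in the mutant mice (log2 fold change 0.38, unadjusted p = 0.0124, adjusted p = 0.998). Slc5a1, the sodium-glucose transporter, read 1224 ± 157, 1775 ± 227 and 1301 ± 248 (0.50 in heterozygous mice, unadjusted p = 0.00436, adjusted p = 0.49). Of 15 receptors and peptidases 3 were tested, Cckar, Sstr2 and Dpp4. Dpp4, which cleaves the glucagon-like peptides and peptide YY, read 1612, 1731 and 1448 and did not pass, and Glp1r averaged at most 1.4.

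Markers of other cells were set beside the members. The 11 genes of enteric neurons and glia summed to 1716 to 2178 in the wild-type mice, 1540 to 2117 in the heterozygous and 1711 to 1920 in the mutant mice, and none of the 6 tested passed (5 lower and 1 higher in each carrier genotype). Against wild-type, 51% of all tested probe sets were higher in mutant and 49% in heterozygous mice. Uchl1, a neuronal enzyme, read 657.6, 634.3 and 578.2, and the part of neurons in Sst, Chga and Chgb was not tested. Goblet cell, colonocyte and tuft cell lists of 7, 9 and 4 tested genes had no call, nor had 8 smooth muscle genes. Of the smooth muscle genes 7 of 8 had lower values in heterozygous than in wild-type mice and 3 had an unadjusted p under 0.05. In this comparison 8.01% of all tested probe sets had such a p, and 49% were higher. Genes of one tissue layer can move together, so they are not separate observations. Cnn1, the calponin of smooth muscle, averaged 1523 in the heterozygous mice against 2373 in wild-type and 2387 in mutant mice (log2 fold change -0.65 and, mutant against heterozygous, 0.63; adjusted p = 0.323 and 0.191). Retnlb, a goblet cell protein, averaged 3713 against 6188 and 5802 (-0.73 and 0.69; adjusted p = 0.584 and 0.649). The part of tissue makeup in the members' values was not tested. Goblet sums were 37010 to 47290 in the wild-type mice, 32220 to 37560 in the heterozygous and 35140 to 45600 in the mutant mice, and colonocyte sums 31400 to 37330, 28870 to 34930 and 29400 to 38490. Tuft sums were 1039 to 1129, 953.4 to 1092 and 984.7 to 1218, and smooth muscle sums 31490 to 34410, 26620 to 30490 and 28800 to 35990. Of small intestine epithelium 5 genes were tested without a call, with sums over 8 genes of 10850 to 13430, 9776 to 13470 and 11010 to 12350. Lct and Apoa4 were dim, with means of 12.63 to 19.67. Fabp2 was bright, with means of 6510 to 7222, as were Fabp6 (3106 to 3199) and Apob (764 to 911.5), while Apoc3 read 165.7 to 412.2. Ins2 and Pdx1 averaged at most 6.63, both within the Bacillus controls.

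By likeness over the 9 mice, the 3 probe sets of other genes with the highest r to each member were picked from 12489 with 1 symbol, and with so many compared over 9 mice high values are common. Sct was matched by Heatr6 (0.946), Ccdc50 (0.922) and Scg3 (0.903), a granule protein, and Insl5 by Tmem176a (0.969), Phf13 (0.916) and Ckap4 (0.898). Gcg was matched by Fam174a (0.983), Nisch and Tnrc6a, and Pyy by Nckap1l (0.976), Ints9 and Pip5k1b. Chga went with Lrp1 (0.953), Fa2h and Trim2, Chgb with Hsd11b1 (0.959), Fam241b and Adhfe1, and Neurod1 with Slc6a20a (0.957), Coil and H2-Bl. For Sst they were Glrx (0.957), Narf and Gatad1, and for Tph1 Miga2 (0.934), Trip10 and Ide.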

How the data were processed

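Total RNA of 9 proximal colons, 3 per genotype, was amplified (NuGEN Ovation) and put on 1 Affymetrix array each, per the labels. The authors deposited intensities, 1 linear signal per probe set, and the submitters' processing notes name GCOS, without version or scaling. Trimmed means lay between 500.1 and 500.2. Of 22690 probe sets, 64 controls were left out. Signals plus 16 were taken to log2 and quantile normalized, and probe sets with a mean under the 40th percentile were left out. Adding 16 makes fold changes of dim genes smaller. Fold changes come from limma 3.58.1 (R 4.3.3; lmFit, eBayes with a trend) with all 9 arrays in 1 fit and no covariate, adjusted by Benjamini-Hochberg over 13576 probe sets with a threshold of 0.05; the fit was tested on simulated data. Means, SDs and sums are deposited units.

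Gene names come from the platform's annotation: 20380 probe sets have 1 symbol, 691 several and 1555 none. A gene's leading probe set has the highest mean. Correlations over 9 mice used exact permutation tests (two-sided; every order, or every order within genotypes, in place of the planned random draws), with Benjamini-Hochberg adjustment in each family. The position genes formed 1 family of 15 relations, chosen after values had been seen and not covering every member with every position gene. Named genes are all members, up to 3 genes per list with small p, and the 3 most alike genes per member; further genes were picked with their values in view. The members and lists were chosen with earlier results of these data known. Promoter windows matched all 10 members; proteins were not used here. Python 3.11.15 and matplotlib 3.10.9 drew the figures.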

Additional observations from a re-analysis of the deposited data

How the results depend on the processing

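No member was called under any of 21 alternatives in any comparison: the 567 member values ended with a smallest adjusted p of 0.0607, for Pyy in heterozygous against wild-type mice with array weights (limma). Their direction held in 540 and turned in 27, among them 7 of 21 for Sct and 2 of 21 for Chga in mutant against heterozygous mice, and all of those that turned were far from the threshold. Insl5 in mutant against heterozygous mice ran from 0.40 to 1.10 on the log2 scale, with the same direction in 21 of 21 and an adjusted p of 0.274 or more. Over all probe sets the calls moved more. In heterozygous against wild-type they rose from 0 to 134 with array weights and ranged from 0 to 3 when 1 array was left out, with 3 without heterozygous 3. In mutant against wild-type they rose from 3 to 9 with array weights and to 9 without the 3 arrays numbered 1, and ranged from 2 to 4 with 1 array left out. In mutant against heterozygous they went from 3 to 5 with only the 2 genotypes compared, and ranged from 1 to 7 with 1 array left out, the lowest without heterozygous 1 or mutant 2 and the highest without heterozygous 3; the cause was not tested.

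Arrays of the same number had deviations from their genotype means that correlated at -0.06 to 0.46, over 0.1 in 5 of 9 pairs. The labels give no pairing, and the numbers were not taken as one. In every genotype, however, the actin ratio fell and the median signal rose from number 1 to number 3. Median signals were 129.4 to 136.1 for number 1, 147.6 to 156.6 for number 2 and 158.2 to 162.2 for number 3. The reason was not tested. With the replicate number as a block, 5 probe sets were called in mutant against wild-type and 8 in mutant against heterozygous, and no member. The block lowered the SE of Gcg from 0.195 to 0.102. In limma its unadjusted p was then 0.0206 in heterozygous against wild-type (adjusted p = 0.334). In mutant against heterozygous it was 0.0141 (adjusted p = 0.298). The block also raised the number of all 13576 probe sets with an unadjusted p under 0.05. It went from 1087 to 1681 in heterozygous against wild-type and from 1027 to 1767 in mutant against heterozygous. Of the 9 arrays, 6 had deviations that correlated best with those of an array of their own number, a hint from the data and not the design. Only arrays of the other genotypes were searched. Each of those genotypes holds 1 array of that number among its 3, so some matches arise by chance. Of the 36 correlations between members, none passed in exact permutation tests with the values as deposited, within genotypes or without the 2 farthest mice (smallest adjusted p 0.176, 0.283 and 0.25). With 3 mice per genotype, differences as wide as the intervals above stay possible, and probe sets near the Bacillus controls, such as the dimmer Neurod1 one, say little.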
